A study of Mus musculus with 76 samples.

Results

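The genes described here are 9 rows of the white adipose tissue (WAT) and liver tables that encode the β3-adrenergic receptor (Adrb3), G protein subunits (Gnas, Gnai2, Gnai3, Gnb1, Gnb2), the phosphodiesterase 3B gene (Pde3b) and the protein kinase A (PKA) subunits Prkar2b and Prkaca. They were taken by gene symbol, 9 of the 18964 entries of the WAT table and of the 16775 entries of the liver table, and they had been chosen by the measured genotype difference in WAT, so their WAT values are given as a description, with no test. Liver and visceral WAT came from female mice fed ad libitum on standard chow. Fnip2 C/C mice carry a knock-in that replaces T by C in the 3′UTR of Fnip2, which encodes a folliculin-interacting protein, together with 1 changed base that disrupts the PAM of the CRISPR guide. Fnip2 T/T mice carry the ancestral T; the genotypes were obtained by crossing heterozygous mice, and both groups are on a pure C57BL/6 background. The age of these mice was not given in the sources used here. WAT was sequenced from 4 Fnip2 C/C and from 5 Fnip2 T/T mice and liver from 5 of each, with 1 library per mouse and tissue and 6 mice that gave both tissues. The genotypes are called C/C and T/T from here on. The question put to the data is whether the transcripts of the adrenergic and cyclic AMP (cAMP) route differed between the genotypes in each tissue.

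In fat cells, catecholamines released by sympathetic nerves bind β-adrenergic receptors, of which Adrb3 is the form typical of rodent adipocytes. The receptor activates the stimulatory G protein, whose α subunit is made by Gnas, and adenylyl cyclase then makes cAMP. Receptors coupled to the inhibitory α subunits made by Gnai2 and Gnai3 act the opposite way, and both kinds of α subunit work with βγ dimers that contain Gnb1 or Gnb2. cAMP releases the catalytic subunits of PKA (Prkaca, Prkacb) from regulatory subunits (Prkar1a, Prkar1b, Prkar2a, Prkar2b), and the freed kinase phosphorylates perilipin 1 and hormone-sensitive lipase, which starts lipolysis. Insulin opposes this through phosphodiesterase 3B, which breaks cAMP down. In liver the same second messenger mainly carries the signal of glucagon.

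Values are normalized counts, that is 3′ reads per gene divided by 1 size factor per library, and the 2 tissues were normalized separately. Libraries held 4180209 to 6277644 reads in WAT and 5583041 to 7523200 in liver. A log2 difference is C/C minus T/T on the log2(normalized count + 1) scale from a limma fit over every gene with a mean of at least 10, and "called" means an adjusted p under 0.05 over all genes of that fit. Reads were counted per gene, so the values do not show which Fnip2 allele a library carries. All 10 adipocyte markers examined were measured in WAT, and in liver the 8 hepatocyte markers summed to between 718470 and 906300 normalized counts per library. The WAT library of C/C mouse 593 stood apart: its 10 adipocyte markers summed to 77464, against 130870 to 247360 in the other 8 WAT libraries, and ovary markers summed to 23954, against at most 139 in the other WAT libraries, although the table lists no reads for the ovary genes Amh, Zp3 and Oosp1. Values without this library are given beside some of the results. In whole tissue, fewer cells of a type and less RNA per cell cannot be told apart.

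In WAT, 2 of the 9 genes were lower in every C/C mouse than in any T/T mouse, namely the catalytic subunit gene Prkaca and the β subunit gene Gnb2. The mean of 7 of the 9 genes was lower in C/C WAT. The 95% interval of the difference lay on 1 side of 0 for 4 of the 9. Gnai3, Gnb2 and Prkaca were on the lower side and Gnb1 on the higher. Such an interval corresponds to an unadjusted p under 0.05 by limma, which 5613 of the 12798 WAT genes tested had. The fit called 2 of the 9, both lower, where 32.1% of the 12798 WAT genes tested were called, 17.0% as lower and 15.1% as higher. The groups did not overlap for 2 of the 9, against 26.1% of all genes tested. The rule that chose the genes used this contrast, so nothing is read from these counts.

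**Figure D1:**
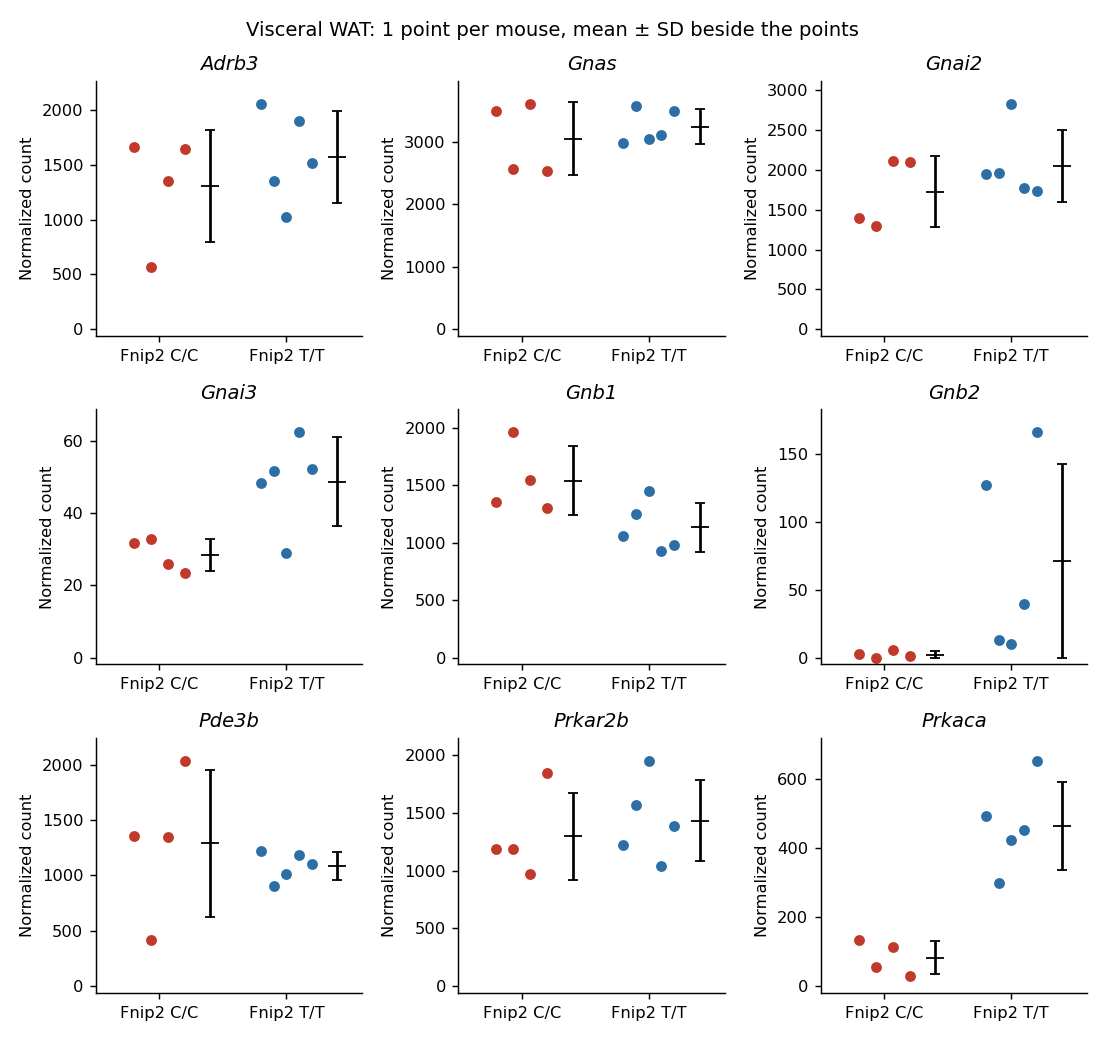
Normalized counts of the 9 genes in visceral WAT (y axes, linear, from about 0), 1 point per mouse, with the mean and SD drawn beside the 4 C/C and 5 T/T mice. Prkaca and Gnb2 are the 2 genes whose groups do not overlap, and the Gnb2 values of the T/T mice spread from 10.05 to 166.

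For the receptor, Adrb3 was at 1665, 571, 1350 and 1649 normalized counts in C/C mice 590, 593, 599 and 638, and at 2061, 1355, 1029, 1905 and 1513 in T/T mice 607, 608, 609, 657 and 658. The groups overlapped, and the lowest value was that of mouse 593. The log2 difference was −0.34 (SE 0.32, 95% interval −1.02 to 0.34), and without mouse 593 it was 0.02.

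Gnas, the stimulatory α subunit gene, varied least among the T/T mice of the 9 genes, with a coefficient of variation of 8.49%. It was at 3504, 2564, 3618 and 2541 in the C/C mice and at 2987, 3585, 3054, 3110 and 3505 in the T/T mice, in the mouse order above. Mice 593 and 638 lay below every T/T mouse, mouse 599 above, and mouse 590 inside the T/T range, and the log2 difference was −0.10 (SE 0.19, 95% interval −0.52 to 0.31; −0.03 without mouse 593).

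The inhibitory α subunit gene Gnai2 was at 1397, 1301, 2118 and 2105 in the C/C mice and at 1947, 1967, 2835, 1774 and 1737 in the T/T mice. Its groups overlapped, with mouse 609 the highest, and the log2 difference was −0.26 (SE 0.22, 95% interval −0.74 to 0.22; −0.13 without mouse 593). Gnai3 was at 31.8, 32.8, 26.0 and 23.4 against 48.4, 51.6, 29.02, 62.5 and 52.3, from 106 reads in all in C/C and 270 in T/T. Only mouse 609 of the T/T group reached into the C/C range, and the log2 difference was −0.73 (SE 0.27, 95% interval −1.30 to −0.15).

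The 2 β subunit genes went opposite ways. Gnb1 was at 1354, 1963, 1546 and 1298 in the C/C mice and at 1060, 1248, 1451, 930 and 978 in the T/T mice, so that 2 of the 4 C/C mice lay above the whole T/T range. Its log2 difference was 0.44 (SE 0.20, 95% interval 0.01 to 0.87), and without mouse 593 it was 0.32. Gnb2 had 2, 0, 5 and 1 reads in the C/C libraries, or 2.35, 0, 5.42 and 1.17 normalized counts, and 155, 13, 9, 40 and 219 reads in the T/T libraries, or 127, 12.6, 10.05, 39.7 and 166. Nearly all of its 436 T/T reads came from mice 607, 657 and 658, while mice 608 and 609 stood close to the C/C group. The log2 difference of −4.01 (SE 0.84, 95% interval −5.82 to −2.20) depends on the pseudocount, since the C/C group held 8 reads in all. It was −2.21 with a pseudocount of 10 and −3.545 without mouse 593. In the mouse annotation Gnb2 shares bases with Epo and Mir6418 on the same strand, and how reads in a shared stretch were assigned was not given in the sources used here.

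Pde3b had the widest spread of the abundant genes among C/C mice, with a coefficient of variation of 51.6% against 11.6% in the T/T group. It was at 1360, 416, 1345 and 2038 in the C/C mice, the lowest again in mouse 593, and at 1218, 908, 1017, 1181 and 1099 in the T/T mice. The log2 difference was 0.05 (SE 0.36, 95% interval −0.73 to 0.83) and became 0.52 without mouse 593.

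Prkar2b, the regulatory subunit typical of adipocytes, was at 1187, 1189, 971 and 1844 in the C/C mice and at 1222, 1571, 1954, 1036 and 1382 in the T/T mice. The groups overlapped, and the log2 difference was −0.15 (SE 0.23, 95% interval −0.66 to 0.35). Prkaca was at 133, 56.2, 113 and 29.3 in the C/C mice and at 492, 299, 423, 452 and 654 in the T/T mice. The highest C/C value was thus below the lowest T/T value, with means of 82.8 ± 48.2 (SD, n = 4) and 464 ± 129 (SD, n = 5), a ratio of 5.61 in favour of T/T. The log2 difference of Prkaca was −2.65 (SE 0.38, 95% interval −3.49 to −1.82), and −2.54 without mouse 593.

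Some other measures of the WAT libraries also separated by genotype, and others did not. Of the 10 adipocyte markers, 6 were called lower and 0 higher in C/C WAT, where 17.0% of all WAT genes were called lower. Their summed level overlapped, at 77464 to 247360 in C/C and 130870 to 219500 in T/T. The lowest C/C sum was that of mouse 593, and without this mouse the C/C range was 179300 to 247360. Of the 7 hepatocyte markers with values in WAT, 3 were tested and 2 were called lower, and the summed level was 153 to 694 in C/C against 846 to 2907 in T/T, with no overlap. Small nucleolar RNA genes took 0.0395% to 0.164% of the reads in C/C and 0.0139% to 0.0272% in T/T WAT, again with no overlap. Over protein-coding genes, the log2 difference had a Spearman correlation with transcript length of 0.15 in WAT and 0.02 in liver. The transcripts used for Gnb2 and Prkaca were 1860 and 2276 bases long. Those of the other genes ran from 2215 (Gnai2, whose WAT groups overlapped) to 6573 (Pde3b). The part of these measures in the values of Prkaca and Gnb2 was not tested.

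Promoter sequence is shown for these 2 genes because their groups were the ones that separated in WAT. The motif searched was the cAMP response element TGACGTCA, the site that CREB family factors bind, and its short form TGACG or, on the other strand, CGTCA, which is also contained in the full element. RefSeq promoters (GRCm38.p6) run from 250 bases before to 50 after the start site. Each line gives 30 bases in the direction of transcription, with the short form in capitals.
Gnb2, chr5:137533293-137533322, minus strand: cggcgacggccgCGTCActggcgggcggga
Prkaca, chr8:83972846-83972875, plus strand: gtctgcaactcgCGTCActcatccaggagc
Prkaca, chr8:83972960-83972989, plus strand: gggctgcgggggCGTCAcggacagaggact

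The short form lay 4 bases before the start site in the Gnb2 promoter, and 120 and 6 bases before it in 1 of the 2 Prkaca promoters. It was also present in the promoters of Gnai3 and Gnb1, in 3 of 4 promoters of Gnas and in 0 of 2 of Prkar2b. Overlapping Gnas promoters shared the same site, 38 and 57 bases before their start sites. The short form was in 20.8% of all 32851 promoters and in 23.2% of the 190 promoters of the further pathway genes followed below. No promoter entry was found for Adrb3, Gnai2 and Pde3b. The full element was in none of the 11 promoters of these 6 genes and in 1.79% of all promoters. A match describes the letters of the window and is not a site of binding. On the same build, Gnb2 is the protein-coding gene at chr5:137528127-137533510 and Prkaca the one at chr8:83972993-83996443; the counts themselves were made on GRCm39.

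In the liver, none of the 8 genes that passed the filter was called, and 7 of them differed by at most 0.10 on the log2 scale, Adrb3 being the exception. The liver fit called 0.0% of the 11710 genes tested, with 231 genes (1.97%) at an unadjusted p under 0.05 by limma, and edgeR and DESeq2 also called 0, with 269 and 225 genes at an unadjusted p under 0.05. The adjusted p (limma) was 1.00 for each of the 8 genes.

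**Figure D2:**
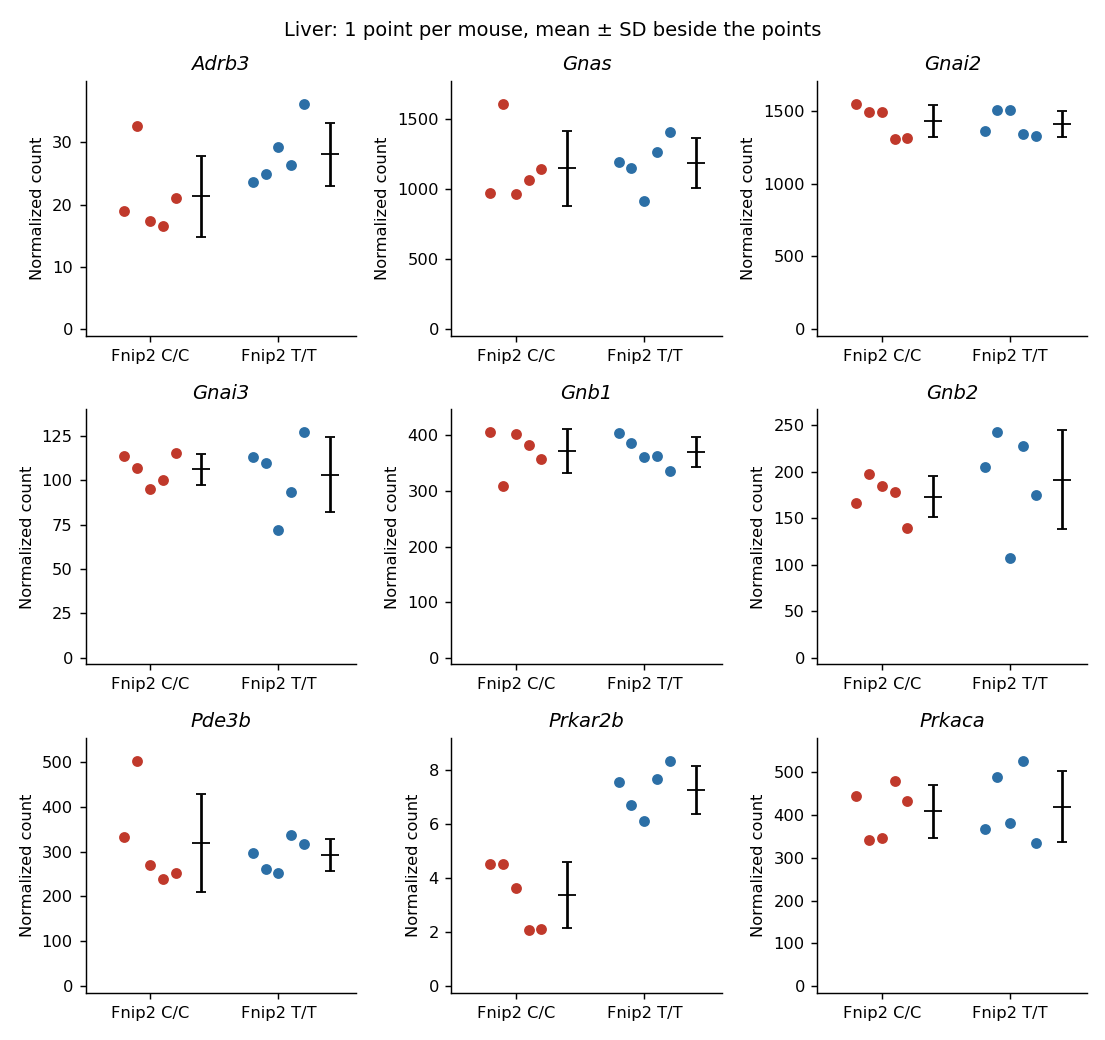
Normalized counts of the 9 genes in liver (y axes, linear, from about 0), 1 point per mouse, with the mean and SD drawn beside the 5 C/C and 5 T/T mice. The groups overlap for 8 genes, and Prkar2b, at no more than 8.35 normalized counts, is the gene whose groups do not.

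Prkaca, which did not overlap between the genotypes in WAT, was at 444, 341, 346, 480 and 432 in the livers of C/C mice 590, 591, 592, 638 and 639. In the livers of T/T mice 607, 608, 657, 658 and 659 it was at 366, 488, 382, 527 and 335. The ranges overlapped, with a log2 difference of −0.03 (SE 0.15, 95% interval −0.34 to 0.28).

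Gnb2 was at 166, 197, 185, 178 and 139 in the C/C livers and at 205, 243, 107, 227 and 175 in the T/T livers. The T/T livers spread around the C/C values on both sides, and the log2 difference was −0.10 (SE 0.19, 95% interval −0.49 to 0.29).

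Adrb3 was low in liver, at 18.9, 32.6, 17.3, 16.6 and 21.1 in C/C and at 23.6, 24.9, 29.3, 26.4 and 36.2 in T/T. It came from 112 and 138 reads in all, and 4 of the 5 C/C livers lay below the whole T/T range. The log2 difference was −0.41 (SE 0.23, 95% interval −0.90 to 0.08) and the two-sided exact permutation test of the mean log2 value gave p = 0.0714.

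The remaining 5 genes that passed the filter differed by between −0.06 and 0.08 on the log2 scale in liver. Gnas had a log2 difference of −0.06 (95% interval −0.38 to 0.26), Gnai2 of 0.02 (−0.21 to 0.25) and Gnai3 of 0.06 (−0.26 to 0.39). Gnb1 had 0.00 (−0.24 to 0.24) and Pde3b 0.08 (−0.29 to 0.44). Each of these 5 intervals includes 0, and the farthest bound from 0 is 0.44.

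Prkar2b was below the filter in liver, with 5, 5, 4, 2 and 2 reads in the C/C libraries and 8, 7, 5, 7 and 9 in the T/T libraries. As normalized counts every C/C liver (2.07 to 4.53) was below every T/T liver (6.10 to 8.35), with means of 3.37 ± 1.22 and 7.27 ± 0.89 (SD, n = 5 each). Among liver genes that passed the filter, which Prkar2b did not, 0.248% had groups that did not overlap. The two-sided exact permutation test gave p = 0.00794, the smallest that the 252 groupings of 10 livers allow. This test was run on each of the 9 genes with no adjustment. Apart from Adrb3 and Prkar2b, it gave p from 0.69 (Gnb2) to 0.99 (Gnb1). With no filter on low values the limma fit gave Prkar2b a log2 difference of −0.96 (SE 0.38) and an adjusted p of 1.00. The result rests on 18 and 36 reads in all. The 6 adipocyte markers with values in liver summed to 212 to 369 in C/C and 222 to 893 in T/T livers. Of these markers, 4 were tested in liver and 0 were called. Their part in the liver values of Prkar2b and Adrb3 was not tested.

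**Figure D3:**
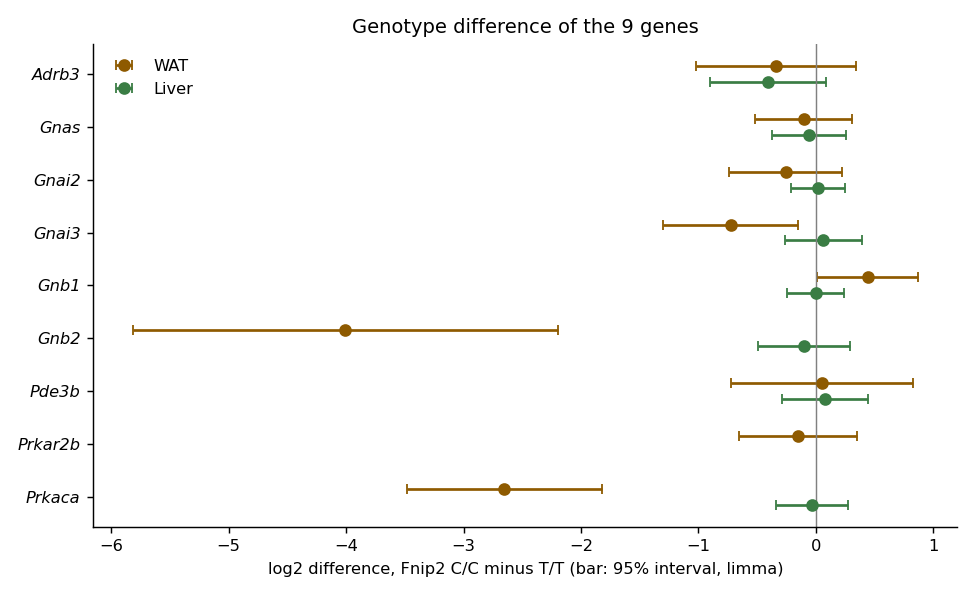
Log2 difference between C/C and T/T (x axis) of the 9 genes in WAT and in liver, with points for the limma estimate and bars for its 95% interval; Prkar2b has no liver point because it was below the filter. The WAT intervals of Gnb2 and Prkaca lie at or below −1.82, and every liver interval includes 0.

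The genotype difference in WAT minus that in liver, from a fit over both tissues, was −3.91 for Gnb2 (95% interval −5.84 to −1.98) and −2.62 for Prkaca (−3.52 to −1.73). It was −0.79 for Gnai3 (−1.38 to −0.20), 0.44 for Gnb1 (0.00 to 0.88) and −0.28 for Gnai2 (−0.77 to 0.21). For Adrb3, Gnas and Pde3b it was 0.07, −0.05 and −0.03, with intervals that include 0. These values contain the WAT contrast that chose the genes and are given with no test.

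Reads scaled to the total of a library (RPM) give the level of the same gene in both tissues, and they are set side by side with no test because the tables were made separately. In RPM, Adrb3 stood at 353 ± 117 in T/T WAT and 270 ± 95.1 in C/C WAT, against 4.19 ± 0.89 and 3.16 ± 1.04 in liver (SD, n = 5, 4, 5 and 5). Prkar2b stood at 314 ± 60.3 and 272 ± 75.8 in WAT, against 1.08 ± 0.15 and 0.50 ± 0.20 in liver. Both genes were thus the most biased to WAT of the 9, whatever the genotype.

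Gnas, Gnai2, Gnb1 and Pde3b were higher in WAT in both genotypes, by ratios of the group means between 1.71 and 5.95. Gnai3 was higher in liver in both, at 15.4 ± 3.49 in T/T and 15.7 ± 1.31 in C/C liver against 10.9 ± 3.10 and 6.01 ± 1.20 in WAT. Prkaca stood at 103 ± 28.2 in T/T WAT, 62.4 ± 12.6 in T/T liver, 60.2 ± 7.97 in C/C liver and 17.2 ± 9.39 in C/C WAT. The liver groups of Prkaca, neighbours in that order, differed by less than their spread. For Gnb2 the order was 28.5 ± 8.12 in T/T liver, 25.7 ± 4.06 in C/C liver, 15.96 ± 15.8 in T/T WAT and 0.46 ± 0.49 in C/C WAT, and the first 3 differed by less than the spread of the T/T WAT mice.

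The rest of the pathway was followed with a list of 159 further genes. Of these, 148 were in the WAT table, 117 passed the filter, and 38 (32.5%) were called, 23 lower and 15 higher in C/C WAT, a share close to the 32.1% of all genes. The groups did not overlap for 31 of the 117, where the share over all genes was 26.1%. The median log2 difference was 0.07 over the 117 genes and 0.02 over all genes tested. Without mouse 593 the calls were 41 of 115, 21 lower and 20 higher, and 29.6% of all genes were called in that fit. In liver, 0 of 86 were called, 2 of them, Pck1 and Pde7a, with an unadjusted p under 0.05, and edgeR and DESeq2 also called 0 of 86. Below, the 3 genes of lowest p in each direction and a set of core genes were named by rule. Every other gene, called or not, was named after its values were seen. Adjusted p-values are from limma. Each count per list stands beside the shares over all WAT genes tested, 32.1% called and 26.1% without overlap.

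**Figure D4:**
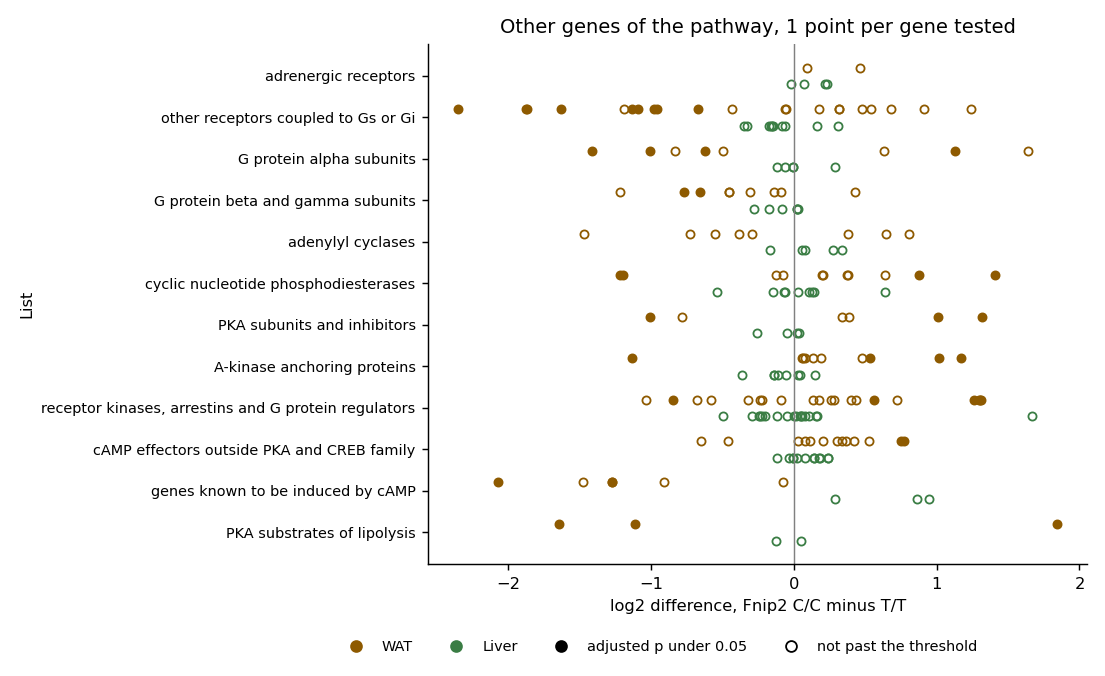
Log2 difference between C/C and T/T (x axis) of the 159 listed pathway genes that were tested, 1 point per gene, by list (y axis) and tissue; filled points have an adjusted p under 0.05. WAT points spread to both sides, with 23 called lower and 15 higher, and no liver point is filled.

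Of the other adrenergic receptors, 2 were tested in WAT and 4 in liver, and none was called in either by limma, edgeR or DESeq2, with 0 at an unadjusted p under 0.05 by each. Adrb1, the β1 receptor, was at 40.0, 25.3, 45.5 and 145 in the C/C and at 55.0, 38.9, 58.0, 33.7 and 59.1 in the T/T WAT libraries. Mouse 638 alone stood high, and the log2 difference of 0.09 (SE 0.41, adjusted p = 0.88) became −0.40 without it. Adra2a, which couples to the inhibitory G protein, was below the filter in WAT, at 3.51 to 7.49 in C/C and 2.23 to 17.2 in T/T.

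Among 21 genes listed for other receptors coupled to stimulatory or inhibitory G proteins, 9 were called lower in C/C WAT and 0 higher. The list includes Ramp1, Ramp2 and Ramp3, which encode partner proteins of receptors and were not called. Without mouse 593 the counts were 8 and 2, the latter Hcar1 and Adora2a. Over all genes, 17.0% were called lower and 15.1% higher. Mc2r, the corticotropin receptor, was at 11.8, 2.81, 6.50 and 11.7 in the C/C and at 55.8, 22.4, 49.1, 57.5 and 32.6 in the T/T mice, without overlap. Its log2 difference was −2.35 (SE 0.43, adjusted p = 0.00202), and −1.98 without mouse 593. Ffar2, the receptor for short-chain fatty acids, differed by −1.88 (−1.37 without mouse 593). S1pr1, a sphingosine 1-phosphate receptor abundant in endothelium, differed by −1.87 (−1.49 without mouse 593). Calcrl, the calcitonin receptor-like gene, differed by −1.63 (−1.35 without mouse 593). The prostaglandin E2 receptor gene Ptger3 differed by −1.13 and the adenosine A1 receptor gene Adora1 by −1.09. The thyrotropin receptor gene Tshr differed by −0.96 (−0.73 without mouse 593). Of these, Adora1 and Ptger3 couple to the inhibitory G protein, and Mc2r and Tshr to the stimulatory one. Ptger4 (−0.98) lost its call without any of mice 599, 638, 607, 657 or 658, with −0.79 to −0.97, and Lpar1 (−0.67) without any of mice 590, 593, 607, 657 or 658, with −0.58 to −0.64, and with quantile normalization (−0.61). Of 7 endothelial markers, 3 were called lower and 1 higher, and their sum was 2347 to 3751 in C/C and 3221 to 4606 in T/T WAT; their part in S1pr1 and Calcrl was not tested.

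Among the other α subunit genes, 4 of 8 were called, 3 lower and 1 higher, where 32.1% of all WAT genes were called. Gna13 was at 565, 764, 746 and 849 in the C/C and at 353, 327, 381, 311 and 284 in the T/T mice. The groups did not overlap, with a log2 difference of 1.13 (SE 0.17, adjusted p = 0.00102). Its relative Gna12 differed by −1.41, and Gnaq and Gna11, which activate phospholipase C, by −0.62 and −1.01. Of 9 further β and γ subunit genes, 2 were called lower. Gnb5 (−0.77) lost its call without any of mice 593, 638, 608, 609 or 658, with −0.53 to −0.77, and Gngt2 (−0.66) without any of mice 593, 599, 638, 608, 609 or 658, with −0.49 to −0.66.

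None of the 8 adenylyl cyclase genes tested in WAT was called, with 3 at an unadjusted p under 0.05. edgeR called 0 of them and had 4 at an unadjusted p under 0.05, and DESeq2 called 1, Adcy9, with 5. Adcy9, named after its values were seen, was at 42.2 to 104 in C/C and 35.6 to 45.7 in T/T (log2 difference 0.64, adjusted p = 0.073) and was also called with quantile normalization and without mouse 638. Adcy4 was called without mouse 590 or 607 and Adcy6 without mouse 593. Adcy4 was at 62.1 to 95.3 in C/C and 73.9 to 150 in T/T (log2 difference −0.55, adjusted p = 0.084; −0.68 without either mouse). Adcy6 was at 38.4 to 185 against 32.4 to 78.8 (0.81, adjusted p = 0.15), and at 1.18 without mouse 593. Adcy3 (0.38, adjusted p = 0.28) and Adcy5 (−0.73, adjusted p = 0.15) overlapped between the groups as well.

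Of the 11 cyclic nucleotide phosphodiesterase genes other than Pde3b, 2 were called lower and 2 higher, against 17.0% and 15.1% of all WAT genes. Pde4b and Pde1b differed by −1.22 and −1.19, and Pde8a and Pde4a by 1.41 and 0.88. Pde4a, Pde4b and Pde8a make enzymes that break down cAMP only, while that of Pde1b is activated by calmodulin. The groups of these 4 genes did not overlap, which held for 26.1% of all WAT genes tested.

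The PKA subunit genes changed in both directions. Prkacb, the second catalytic subunit gene, was at 1264, 1051, 1415 and 2049 in the C/C mice and at 478, 765, 539, 607 and 468 in the T/T mice. Every C/C value was above every T/T value, the opposite order to that of Prkaca in the same libraries, and the log2 difference was 1.32 (SE 0.22, adjusted p = 0.00149). Leaving out mice in turn kept it between 1.13 and 1.46.

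The type I regulatory subunit gene Prkar1a was at 299, 257, 275 and 248 in the C/C and at 700, 388, 412, 578 and 716 in the T/T mice, with no overlap and a log2 difference of −1.004 (SE 0.21, adjusted p = 0.00414). Prkar2a was at 559, 476, 660 and 650 against 456, 465, 443, 412 and 446, a small separation (0.39, SE 0.16, adjusted p = 0.079) that was called by DESeq2 and without mouse 593 (0.48). Prkar1b was called higher (1.01), but not without any of mice 593, 608 or 657, with 0.71 to 1.00. In liver, Prkacb, Prkar1a and Prkar2a differed by 0.03, −0.05 and 0.04 (adjusted p = 1.00 each).

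**Figure D5:**
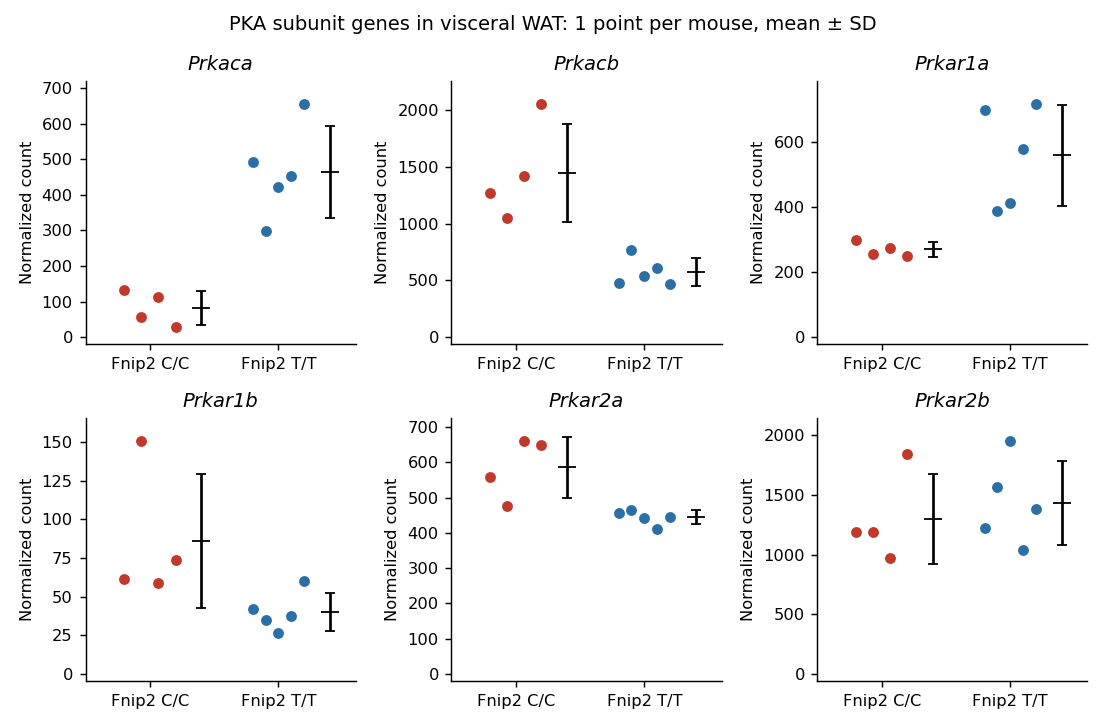
Normalized counts of the 6 PKA subunit genes tested in visceral WAT (y axes, linear, from about 0), 1 point per mouse, with the mean and SD drawn beside them. Prkaca and Prkar1a lie lower in all 4 C/C mice than in any of the 5 T/T mice, Prkacb and Prkar2a lie higher in all 4, and Prkar1b and Prkar2b overlap.

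Of 10 A-kinase anchoring protein genes, which place PKA at sites in the cell, 1 was called lower and 3 higher. The shares over all WAT genes were 17.0% and 15.1%. Akap1, the anchor at the outer mitochondrial membrane, was at 95.3, 59.0, 73.7 and 57.4 in the C/C and at 176, 124, 124, 202 and 161 in the T/T mice (log2 difference −1.13, SE 0.22, adjusted p = 0.0029). The nuclear anchor Akap8 was at 498, 562, 648 and 590 against 314, 247, 277, 286 and 290 (1.02, SE 0.16, adjusted p = 0.00103). The groups of both genes did not overlap. Its relative Akap8l differed by 1.17, and Akap9 (0.53) lost its call without any of mice 599, 638, 607, 609 or 658, with 0.43 to 0.55, with quantile normalization (0.38) and with no filter on low values (0.53).

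Among 20 receptor kinases, arrestins and G protein regulators, 1 was called lower and 4 higher, against 17.0% and 15.1% of all WAT genes. Grk6, a kinase that phosphorylates activated receptors, had the lowest p of the list, at 403, 491, 583 and 507 in the C/C mice and at 171, 213, 247, 164 and 214 in the T/T mice. The groups did not overlap, with a log2 difference of 1.30 (SE 0.18, adjusted p = 0.000774). The β-arrestin 1 gene Arrb1 differed by 1.31 and Rgs10, which speeds GTP hydrolysis by inhibitory α subunits, by 1.26 (0.98 without mouse 593). Ric8a (0.56), a chaperone of α subunits, lost its call without any of mice 593, 599, 657 or 658, with 0.47 to 0.57. Grk2 (−0.84), another receptor kinase, lost it with edgeR (−0.79) and without any of mice 599, 638, 608, 657 or 658, with −0.58 to −0.89.

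Among 13 genes of other cAMP effectors and of the CREB family, 2 were called higher, the CREB coactivator gene Crtc3 (0.75) and Sik3 (0.78), a kinase that PKA restrains. Of 6 genes known to be induced by cAMP, 2 were called lower. Over all WAT genes, 15.1% were called higher and 17.0% lower. Per1, which is also a clock gene, was at 29.4, 19.7, 28.2 and 17.6 in the C/C WAT and at 163, 55.5, 78.1, 97.2 and 148 in the T/T WAT, a log2 difference of −2.07 (SE 0.32, adjusted p = 0.00107) without overlap. In liver Per1 spread from 21.9 to 160 in C/C and from 18.2 to 89.0 in T/T (0.95, adjusted p = 1.00). The time of day at which tissues were taken was not given in the sources used here. The nuclear receptor gene Nr4a2 differed by −1.27, at 10.3 to 18.8 against 26.3 to 46.2. The thermogenic gene Ucp1 was not called and ranged from 5.42 to 476 in C/C and from 24.3 to 1137 in T/T WAT (−0.91, SE 1.45, adjusted p = 0.66). The other uncalled genes of this list were Dio2 (−1.47, adjusted p = 0.16), Pck1 (−1.27, adjusted p = 0.39) and Ppargc1a (−0.08, adjusted p = 0.92).

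The 3 lipolytic substrates of PKA were all called in WAT, 2 lower and 1 higher, where 32.1% of all WAT genes were called. Perilipin 1 (Plin1) was at 1749, 472, 1809 and 1229 in the C/C and at 4253, 2847, 4017, 3751 and 3528 in the T/T mice, with no overlap (log2 difference −1.65, SE 0.34, adjusted p = 0.00385; −1.21 without mouse 593). Hormone-sensitive lipase (Lipe) was at 7754, 2707, 5157 and 1819 against 7633, 8763, 8993, 8234 and 7061, where mouse 590 lay inside the T/T range (−1.11, SE 0.35, adjusted p = 0.0284). The call of Lipe was lost with edgeR (−0.92) and without mouse 593 (−0.96), 638 (−0.77), 608 (−1.09) or 657 (−1.11). Plin5 differed by 1.85 (1.40 without mouse 593), and not past the threshold without mouse 638 (1.51). Plin1 is also 1 of the 10 adipocyte markers above.

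Of the 78 listed genes tested in both tissues, 24 had a genotype difference that differed between WAT and liver (limma interaction, adjusted p under 0.05), 12 with a lower and 12 with a higher value in WAT, against 29.2% of the 10404 genes tested in both. With the mouse as a replicate block the count was 23, 11 lower and 12 higher. Prkacb and Prkar1a were among them, at 1.29 (adjusted p = 0.00099) and −0.96 (adjusted p = 0.00446).

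The WAT patterns closest to those of 3 of the 9 genes were sought as the smallest root mean square difference of centred log2 values over the 9 libraries. For Adrb3 these were Tab3 (0.19), Por (0.20) and Gm12002 (0.22), where the median over genes was 0.73. For Gnb2 they were Ndufb1 (0.47), G0s2 (0.50) and Ndufa1 (0.65), where the median was 2.46. For Prkar2b they were Mrps25 (0.16), Utp23 (0.17) and Pafah2 (0.18), where the median was 0.59. A gene with no variation would stand at 0.53 from Adrb3, 2.41 from Gnb2 and 0.33 from Prkar2b. The 9 libraries share their depth and tissue make-up across genes, so the likeness is a description.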

How the data were processed

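RNA from liver (250 ng) and visceral WAT (500 ng) had been made into QuantSeq 3′ mRNA-Seq FWD libraries and sequenced on an Illumina NextSeq instrument. The submitters' processing notes name FastQC 0.11.9, HISAT2, SAMtools 1.12, HTSeq, DESeq2 and GRCm39; the counting mode was not given in the sources used here. The authors deposited 1 table per tissue whose signal values are read counts divided by a size factor per library; 100.0% of the values used gave whole reads within 1e-06, and those reads fed the edgeR and DESeq2 alternatives. edgeR called 4153 WAT genes, where limma called 4111. The labels list 76 run samples, 4 per mouse and tissue, held in 1 column each for 19 libraries of 13 mice. The WAT table has 1 column with no label, which was not used.

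log2(normalized count + 1) was fitted with limma 3.58.1 (R 4.3.3; trend and robust) per tissue for genes with a mean of at least 10, with Benjamini-Hochberg adjustment over all genes tested and a threshold of 0.05, and over both tissues for the interaction. Alternatives were pseudocounts, filters, quantile normalization, a term for low against high mouse numbers, edgeR 4.0.16, DESeq2 1.42.0 and leaving out each mouse. Mice differed by far more than sampling noise. Numbers shared by the tissues mark the same animal (6 mice); the correlation of their deviations over 10404 genes was between −0.20 and 0.16. The fits were tested on simulated counts.

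The 9 genes and all lists were chosen with earlier results of these data known. Named by rule were the 9 genes; the 3 pathway genes of lowest p in each direction per tissue among those called; Adrb1, Adra2a, Adcy3 to Adcy6, Prkar1a, Prkar2a, Prkacb, Lipe and Plin1, with 1 more gene that is not reported here; and the 3 nearest patterns of Adrb3, Gnb2 and Prkar2b. Marker lists not described with the results were those of macrophages (3 of 8 called lower and 1 higher in WAT), mesothelium (0 of 6), fibroblasts (1 of 7 lower, 2 higher), smooth muscle (2 of 7 lower, 1 higher) and B and T cells (0 of 1); 1 of 6 ovary markers was called higher.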

Additional observations from a re-analysis of the deposited data

Results flagged for a closer look

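Among 34 groups of values of the 9 genes, 1 had a library far from the others, Gnai2 in T/T WAT. Mouse 609 stood there at 2835 normalized counts, and its gap to the next mouse was 0.746 of the range on the log2 scale. Chance alone flags about 1 in 20 such groups.

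The genotype difference of 24 listed pathway genes differed between WAT and liver by the limma interaction test. On the log2 scale, WAT minus liver, Per1 had −3.02, S1pr1 −1.55, Calcrl −1.48, Gna12 −1.29, Lipe −1.16, Pde4b −1.15, Akap1 −1.02, Adora1 −1.01, Gna11 −1.003, Prkar1a −0.96, Grk2 −0.92 and Gnaq −0.56. Plin5 had 1.97, Rgs10 1.46, Pde8a 1.38, Prkacb 1.29, Arrb1 1.26, Grk6 1.25, Akap8l 1.22, Akap8 1.16, Gna13 1.13, Pde4a 0.77, Crtc3 0.76 and Sik3 0.60. The 6 mice with both tissues entered the fit as separate libraries.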

How the results depend on the processing

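The WAT pathway count ran from 31 to 46 over all alternatives, with 83 to 148 genes tested, and from 31 to 43 without 1 mouse. The share of all WAT genes called ran from 21.4% (no filter) to 39.5% (minimum mean of 50). It was 36.9% with DESeq2, which gave the 46. The tissue interaction count ran from 16 to 25, where the share of all genes called ran from 19.4% to 36.1%. This count was 23 with the mouse as a replicate block, which was run for this count alone. The liver counts stayed at 0 under every alternative run. Quantile normalization moved the median tissue difference of all genes by 0.11. With a minimum mean of 50, 1 of the 9 genes was called in WAT, since Gnb2 was below that filter, and 39.5% of all genes tested were called. edgeR, DESeq2 and the fit without mouse 609 called 3 of the 9, the third being Gnai3. They called 32.5%, 36.9% and 32.8% of all genes tested, and nothing is read from these counts. Liver signs near 0 turned: Gnai2 had −0.0185 with quantile normalization and −0.00321 with the mouse number term, and Gnb1 −0.0226, −0.0149 and, with edgeR, −0.00157. Without 1 mouse, liver values ran from −0.19 to 0.0075 (Gnas), −0.0083 to 0.0526 (Gnai2), −0.0580 to 0.15 (Gnai3), −0.0339 to 0.0664 (Gnb1), −0.10 to 0.17 (Pde3b) and −0.11 to 0.0573 (Prkaca), and those of WAT Adrb1 from −0.40 to 0.42; the cause was not tested. In WAT, the direction of Prkaca (−2.95 to −2.24), Gnb2 (−5.01 to −2.21), Gnai3 (−0.90 to −0.59) and Gnb1 (0.28 to 0.54) was the same under every alternative that gave a value, and that of Adrb3 (−0.55 to 0.02) and Pde3b (−0.24 to 0.52) was not; Gnas (−0.27 to −0.02), Gnai2 (−0.46 to −0.13) and Prkar2b (−0.33 to −0.03) kept their sign but moved by over 1.5 times. Intervals cover the spread between these mice, and Gnb2 in WAT and Prkar2b in liver are limited by few reads.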
